A study of Mus musculus with 425 samples.

Results

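The nuclear genes of oxidative phosphorylation were followed in single mouse embryos at the 4-cell and morula stages. Genes were taken by symbol: Ndufa, Ndufb, Ndufc, Ndufs and Ndufv genes for complex I, genes that begin with Sdha, Sdhb, Sdhc or Sdhd for complex II, Uqcr genes for complex III, Cox4 to Cox8 genes for complex IV and Atp5 genes for complex V, without the Ndufaf assembly factors and pseudogenes. This gave 87 of the 23845 genes of the embryo tables, namely 38 named for complex I, 6 for complex II, 8 for complex III, 18 for complex IV and 17 for complex V. The symbols brought in 4 genes that encode no enzyme subunit: the complex II assembly factors Sdhaf1 and Sdhaf2, and Atp5s and Atp5sl, now called Dmac2l and Dmac2. All 87 were matched to RefSeq genes of the mouse assembly GRCm38.

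Oxidative phosphorylation takes electrons from NADH at complex I and from succinate at complex II, passes them through complex III to cytochrome c and at complex IV to oxygen, and uses the proton gradient built on the way to make ATP at complex V. Complexes I, III, IV and V are built from subunits of both genomes, and complex II from nuclear genes alone. Cleavage-stage mouse embryos carry mitochondria inherited from the egg and use pyruvate as a main fuel. Of the 13 subunits encoded in mitochondrial DNA, 0 are in the embryo tables, so every value below is of a nuclear gene.

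The fathers were floxed for Dgcr8, the partner of Drosha in miRNA processing, and each father carried a Cre. Stra8-iCre is active in germ cells and Defb41-iCre in the epididymis. Fathers labelled cKO were Dgcr8fl/fl and control fathers were Dgcr8+/fl, so that control fathers also had a floxed allele and the Cre. Eggs came from FVB/NJ donors, so embryos of every group have a maternal Dgcr8 allele, and embryonic Dgcr8 mRNA gives no check of the father's genotype. From testicular sperm of the Stra8 line there were 21 cKO and 27 control morulae, and 22 cKO and 22 control 4-cell embryos. From cauda sperm (sperm from the end of the epididymis) of the Stra8 line there were 22 cKO and 20 control morulae, and 15 cKO and 18 control 4-cell embryos. From cauda sperm of the Defb41 line there were 22 morulae of cKO fathers that were injected as embryos with miRNA of epididymosomes (vesicles of the epididymal lumen), 24 morulae of cKO fathers that were injected with a control RNA and 26 of control fathers, and 21, 23 and 30 4-cell embryos of the same kinds in this order. The Defb41 control embryos carry no injection label, so for them the father's genotype and the injection cannot be told apart. The labels do not say how many fathers or litters a group came from, and p-values therefore measure the spread between embryos, which may share a father.

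The tables give TPM (transcripts scaled to a fixed total), which is corrected for gene length and is a share of an embryo's mRNA, not an amount per embryo. Depth is unknown, since each embryo adds to the same total. The median number of genes with at least 1 TPM lay between 8362 and 10371.5 in the 14 groups, and 23 of the 313 embryos lay more than 3 median absolute deviations below the median of their stage and table. In the Defb41 table, 7 pairs of embryos correlated above 0.99 over all genes. The 6 pairs within a group were averaged and each counted once, which left 307 embryos, and the pair that joins a control morula with a cKO morula given control RNA was kept. Summed maternal transcripts had a median of 25.8 TPM in control morulae from testicular sperm and 228.1 TPM in control 4-cell embryos, with single embryos overlapping. In the Stra8 cauda sperm table, 4 cKO and 5 control embryos labelled 4-cell share a tag in their descriptions that no other embryo bears, and are called the discordant embryos here. Their summed trophectoderm genes ranged from 18860 to 39630 TPM, against 178.8 to 680.7 TPM in the other 24 embryos labelled 4-cell. Their summed maternal transcripts ranged from 1.92 to 30.44 TPM, against 88.85 to 1273 TPM. These 9 embryos go against their label, and results of that table that rest on 4-cell embryos are given with and without them.

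The oxidative phosphorylation genes were among the higher mRNAs of these embryos. Averaged over the 14 group means, 69 of the 87 genes lay above 100 TPM, 15 between 1 and 100 TPM and 3 below 1 TPM. The median over the 87 genes was 299.9 TPM, against 13.16 TPM over the 10957 genes with a mean of at least 1 TPM. The highest were Cox8a with 1392 TPM and Atp5b, the catalytic beta subunit of ATP synthase, with 1385 TPM. Atp5g1, a gene for the c ring that turns in the membrane, followed with 1343 TPM, then Cox6b1 with 1342 TPM and Cox4i1 with 1300 TPM. Without the discordant embryos 65 genes lay above 100 TPM, the median of the 87 was 278.1 TPM, and the same 5 genes led in another order, with 1326 TPM each for Atp5b and Atp5g1, 1297 TPM for Cox8a, 1243 TPM for Cox4i1 and 1239 TPM for Cox6b1. The tables of the 3 sperm sources were normalised apart, so these averages are descriptive. The lowest and highest of the 14 group means of Cox8a were 1090 and 1786 TPM, a wider range than the steps between these 5 genes.

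Levels differed between complexes. With isoforms of single tissues, assembly factors and the Dmac genes set aside, the median level was 997.5 TPM over 11 complex IV genes, 554.6 TPM over 15 complex V genes, 494.9 TPM over 8 complex III genes, 237.0 TPM over 37 complex I genes and 97.75 TPM over the 4 complex II genes. Without the discordant embryos the medians in the same order were 902.8, 525.2, 473.1, 229.9 and 92.24 TPM. Complex I genes ran from 30.62 TPM for Ndufs4, picked out after its value was seen, to 682.5 TPM for Ndufa4, a protein named for complex I that is known to sit with complex IV. The 7 core subunits lay inside this range and reached neither end of it. Ndufs8 had 439.3 TPM and Ndufs7 427.0 TPM, both named after their values were seen, against 140.2 TPM for Ndufv1 and 66.16 TPM for Ndufs1. In complex II, Sdhb, the iron-sulphur subunit, had 222.9 TPM and Sdha, the subunit that oxidises succinate, 105.4 TPM. The membrane anchors Sdhd and Sdhc had 90.09 and 63.36 TPM. Many of the short subunits have processed pseudogenes in the mouse genome, and RSEM divides reads that fit several genes by estimate, so the split between near-identical copies is uncertain.

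**Figure D1:**
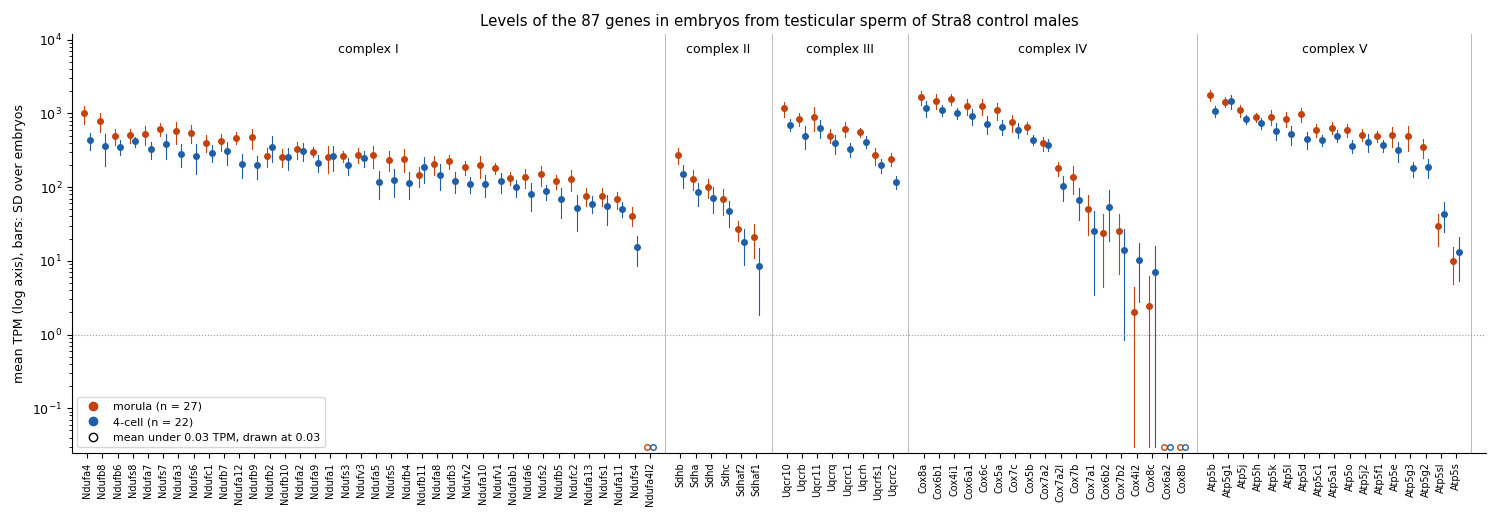
Mean TPM (log axis) of each of the 87 genes by complex in embryos from testicular sperm of Stra8 control males, in 27 morulae and 22 4-cell embryos; bars are SDs over embryos and open points are means under 0.03 TPM. Complex IV holds the highest genes as well as the lowest ones, such as Cox8b, which was at 0.

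The isoform genes known from single tissues were low or absent beside their widely expressed partners. Cox8b, the form of heart and muscle, was listed at 0 in every embryo. Cox6a2, also a muscle form, and Ndufa4l2, known from hypoxic cells, stayed below 1 TPM in every group mean. Cox8c averaged 3.12 TPM beside Cox8a, and Cox4i2, the form of lung and low oxygen, 4.90 TPM beside Cox4i1. Cox7b2 averaged 24.4 TPM beside 113.2 TPM for Cox7b. Cox6b2, known from testis and sperm, averaged 38.2 TPM beside Cox6b1, and Cox7a1, the muscle form, 43.1 TPM beside 365.6 TPM for Cox7a2. Cox7b2 was also the least even of the genes with a mean of at least 10 TPM: the SD of its log2(TPM + 1) was the highest of them in 11 of the 14 groups, with or without the discordant embryos.

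Promoters of 72 of the 87 genes were at hand, each as 250 bases before and 50 after a RefSeq start (GRCm38.p6). They were searched on both strands for 3 fixed strings that stand for factors known to act on such genes: the NRF1 palindrome with any base at its inner free position, ACTTCCGG for ETS factors such as GABP, and the YY1 string. The letters of the NRF1 and YY1 strings are those in capitals in Cox6a1 and Atp5j below, and the strings did not overlap in the promoters shown. A gene was counted as holding a string if any promoter listed for it did. The NRF1 string was in 17 of the 72 genes (23.6%), against 5.19% of all 27025 genes with a promoter of that length and 7.17% of the coding genes among them. The YY1 string was in 6 of the 72 (8.33%), against 0.995% of all and 1.41% of coding genes. The ETS string was in 5 (6.94%), against 4.31% of all and 5.69% of coding genes, and so lay near the coding share. A match describes the letters in this window and is no evidence of binding. The promoters shown were chosen for their matches and show each string in place, 5′ to 3′ on the gene's strand, with the matched letters in capitals. They are Cox6a1 (chr5:115348909-115349208, minus strand) and Atp5h (chr11:115419870-115420169, minus strand) with NRF1 strings, Cox8a (chr19:7217567-7217866, minus strand) with ETS strings, and Atp5j (chr16:84834927-84835226, minus strand) and Ndufs7 (chr10:80249199-80249498, plus strand) with the YY1 string.
Cox6a1: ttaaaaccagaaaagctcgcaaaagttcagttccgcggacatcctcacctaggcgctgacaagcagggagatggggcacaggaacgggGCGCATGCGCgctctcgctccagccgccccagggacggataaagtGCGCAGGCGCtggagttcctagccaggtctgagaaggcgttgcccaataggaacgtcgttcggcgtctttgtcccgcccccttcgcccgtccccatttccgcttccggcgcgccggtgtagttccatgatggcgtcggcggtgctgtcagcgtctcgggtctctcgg
Atp5h: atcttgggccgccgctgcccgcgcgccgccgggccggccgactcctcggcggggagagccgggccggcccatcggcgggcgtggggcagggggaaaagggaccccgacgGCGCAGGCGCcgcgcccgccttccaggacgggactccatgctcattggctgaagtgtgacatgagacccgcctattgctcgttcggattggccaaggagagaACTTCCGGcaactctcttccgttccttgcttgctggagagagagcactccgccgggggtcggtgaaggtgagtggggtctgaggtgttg
Cox8a: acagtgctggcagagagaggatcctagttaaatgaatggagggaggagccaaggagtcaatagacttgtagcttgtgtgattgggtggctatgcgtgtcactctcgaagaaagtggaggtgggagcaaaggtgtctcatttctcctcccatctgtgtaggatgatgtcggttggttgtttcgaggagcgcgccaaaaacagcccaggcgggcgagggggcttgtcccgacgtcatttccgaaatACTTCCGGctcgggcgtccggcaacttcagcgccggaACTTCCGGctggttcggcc
Atp5j: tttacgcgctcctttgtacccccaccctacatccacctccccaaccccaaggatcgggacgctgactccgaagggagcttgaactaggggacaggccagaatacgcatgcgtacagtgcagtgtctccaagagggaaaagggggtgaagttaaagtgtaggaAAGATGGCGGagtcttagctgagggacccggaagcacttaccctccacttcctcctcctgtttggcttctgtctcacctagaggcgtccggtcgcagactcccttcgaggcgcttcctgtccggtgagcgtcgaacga
Ndufs7: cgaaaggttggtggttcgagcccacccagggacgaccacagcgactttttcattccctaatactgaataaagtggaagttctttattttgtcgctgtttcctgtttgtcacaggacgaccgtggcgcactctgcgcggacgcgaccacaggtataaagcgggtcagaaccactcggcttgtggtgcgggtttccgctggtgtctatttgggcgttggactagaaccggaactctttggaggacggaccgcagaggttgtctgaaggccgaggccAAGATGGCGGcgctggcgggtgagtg

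Cox6a1 holds the NRF1 string at 2 places upstream of its start, and Atp5h holds it once beside an ETS string. In Cox8a, among the 5 highest of the 87 genes, the ETS string stands at the start and again behind it. In Ndufs7 the YY1 string lies behind the start used. The starts used for Atp5j and Ndufs7 lie inside the genes, which span 84827871 to 84835857 and 80249105 to 80256794. In the stage comparison below, control morulae from testicular sperm were set against control 4-cell embryos. Of the 26 genes with any of the 3 strings, 25 were higher in morulae, and of the 45 tested genes with none, 36 were. Of all genes tested, 29.7% were higher. The median log2 difference was 0.586 with a string and 0.669 without, so by this median genes with a string did not rise more.

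Between the stages, most of the genes took a larger share of the mRNA in morulae than in 4-cell embryos. Stages were compared within each table in embryos of control fathers with limma on log2(TPM + 1), with Benjamini-Hochberg adjustment over all genes tested and a threshold of 0.05. Of the 84 genes of the set that passed the filter on low values in the testicular sperm table, 71 were higher and 5 lower in morulae, while 29.7% of all 11140 genes tested were higher and 31.2% lower (61.0% in either direction). The median log2 difference of the 84 was 0.62, against -0.02 over all genes tested. Scaling each embryo by its median ratio moved the median of all genes to 0.10 and gave 72 higher and 2 lower. In the Defb41 table, 61 of 84 were higher and 6 lower, while 49.1% of all genes were higher and 20.6% lower (69.7% in either direction), with medians of 0.52 and 0.46. In the Stra8 cauda sperm table, 16 of 84 were higher and 5 lower, while 27.2% of all genes were higher and 17.8% lower (45% in either direction). Without the discordant embryos these counts were 57 higher and 6 lower, while 32% of all genes were higher and 30.8% lower (62.8% in either direction), with medians of 0.53 and 0.03. Leaving out another tag or set of that table in turn gave 4 to 10 higher. The labels do not say how the stages were collected, and those of testicular sperm embryos give no set. Set numbers recur at both stages in the Defb41 table, but what they stand for is not stated. The stage fits had no block for set, so stage and collection cannot be told apart. Fewer copies per embryo and a smaller share of the total mRNA cannot be told apart either.

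The 87 genes together held a median of 3.88% of TPM in control morulae from testicular sperm, with a range of 3.39 to 5.24%, against 2.69% and 2.35 to 3.28% in control 4-cell embryos. In morulae of cKO fathers the median was 3.64% (2.65 to 4.56%), against 2.58% (2.33 to 3.05%) in 4-cell embryos of cKO fathers. The Defb41 medians were 3.93% with miRNA, 3.98% with control RNA and 3.88% in control morulae, against 2.81%, 2.62% and 2.81% in the 4-cell embryos of the same kinds. In control embryos from testicular sperm the 2 stages did not overlap. In the Defb41 table the highest 4-cell embryos, at 4.14 to 4.28% in the 3 groups, lay within the range of morulae.

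**Figure D2:**
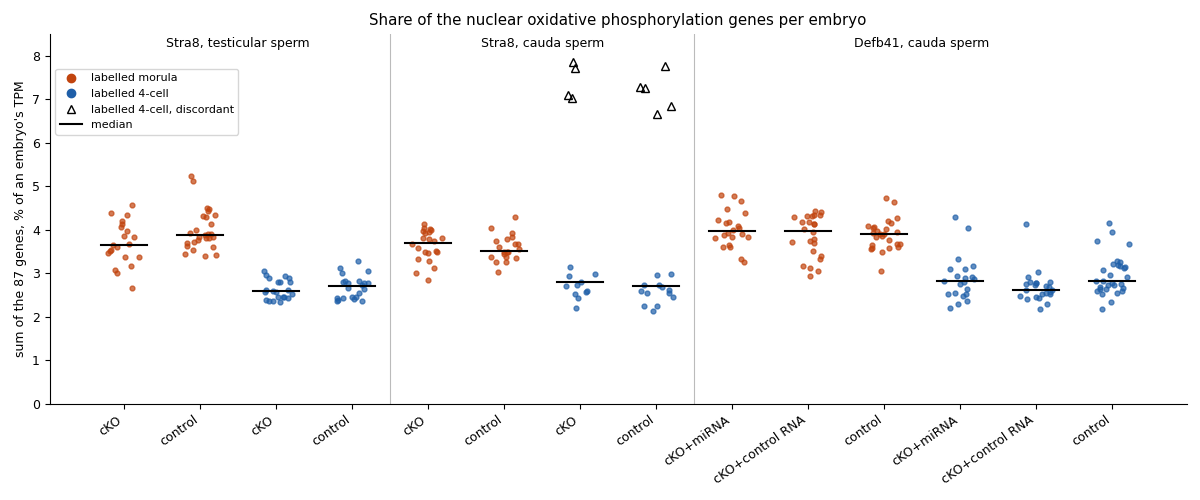
Sum of the 87 genes as a percent of an embryo's TPM, with 1 point per embryo in each of the 14 groups and a line at the median. Triangles are the discordant embryos, at 6.65 to 7.86%, above every other embryo.

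Complex I genes moved mostly upward. In the testicular sperm table, 31 of 37 were higher and 1 lower in morulae, in the Defb41 table, 26 and 2, and in the cauda sperm table without the discordant embryos also 26 and 2, against 9 and 2 with them. All 7 core subunits encoded in the nucleus were higher in the testicular sperm and Defb41 tables and in the cauda table without the discordant embryos, and 4 of 7 with them. Ndufa4 had 559.1, 918.8 and 1810 TPM in control morulae (lowest, median and highest of 27), against 290.8, 399.6 and 615.6 TPM in control 4-cell embryos (of 22). The 2 ranges overlap only between 559.1 and 615.6 TPM. Its log2 difference was 1.21 (SE 0.104, limma adjusted p = 1.12e-14), and it was 0.98 in the Defb41 table and 1.08 in the cauda table without the discordant embryos, or 0.56 with them. Ndufa12, an accessory subunit, had 253.4, 462.7 and 692.1 TPM in those morulae, against 34.87, 199.9 and 396.8 TPM in the 4-cell embryos, a log2 difference of 1.27 (SE 0.14, limma adjusted p = 2.27e-11). Ndufv1, the subunit that binds NADH, had 95.54, 183.3 and 247.0 TPM in morulae, against 33.58, 121.3 and 210.8 TPM in 4-cell embryos, and its ranges overlap widely. The log2 difference was 0.65 (SE 0.119, limma adjusted p = 4.74e-06).

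Other accessory subunits of complex I with the lowest adjusted p in the testicular sperm table included Ndufa5 and Ndufc2, with log2 differences of 1.22 and 1.40, and Ndufb9, which differed by 1.33 in the Defb41 table. Ndufab1, the acyl carrier protein that complex I shares with fatty acid synthesis, differed by 0.45 (SE 0.104, limma adjusted p = 0.000223). It did not pass in the Defb41 table, at 0.19 (SE 0.123), nor in the cauda table without the discordant embryos, at 0.22 (SE 0.138) or, with them, -0.21. Ndufb2 went the other way in all 3 tables. It had 129.5, 252.2 and 436.6 TPM in control morulae from testicular sperm, against 173.9, 324.2 and 614.0 TPM in 4-cell embryos, and its log2 differences were -0.37, -1.06 in the Defb41 table and -0.58 in the cauda table without the discordant embryos or -0.67 with them. With median scaling the testicular sperm value of Ndufb2 was -0.23 and did not pass (limma adjusted p = 0.153).

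All 6 genes named for complex II and all 8 of complex III were higher in morulae in the testicular sperm and Defb41 tables, as were 6 and 7 of them in the cauda table without the discordant embryos, and 3 and 1 with them. Of all genes, 29.7%, 49.1% and 32% were higher in these tables in this order, or 27.2% with the discordant embryos. In the Defb41 table the median log2 difference was 1.28 for complex II and 0.456 for complex III, against 0.462 over all genes. Sdhb had 172.6, 265.1 and 475.0 TPM in control morulae from testicular sperm, against 68.47, 143.4 and 267.5 TPM in 4-cell embryos. Its log2 difference was 0.91 (SE 0.12, limma adjusted p = 3.77e-09). Sdha, Sdhc and Sdhd differed by 0.64, 0.53 and 0.49 in that table. In complex III, Uqcrc2, a core protein, had 147.4, 254.3 and 313.2 TPM in morulae, against 54.67, 114.6 and 156.2 TPM in 4-cell embryos. The ranges of Uqcrc2 touch only between 147.4 and 156.2 TPM, and its limma adjusted p was 8.93e-14. Its partner Uqcrc1 had 350.5, 591.7 and 981.9 TPM in morulae, against 222.7, 323.7 and 524.6 TPM in 4-cell embryos, a log2 difference of 0.91 (SE 0.0941, limma adjusted p = 4.88e-12). Uqcrfs1, the Rieske iron-sulphur protein, and Uqcrh, the hinge protein, differed by 0.43 and 0.44.

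In complex IV, 12 of 16 tested genes were higher and 3 lower in testicular sperm morulae, in the Defb41 table, 10 and 4, and in the cauda table without the discordant embryos, 9 and 2, or 1 and 2 with them. Of all genes, 29.7%, 49.1% and 32% were higher in these tables in this order, or 27.2% with the discordant embryos. In the Defb41 table the median log2 difference was 0.32 for complex IV, below the 0.46 over all genes. Cox4i1 had 1093, 1528 and 2107 TPM in control morulae from testicular sperm, against 621.9, 1022 and 1323 TPM in 4-cell embryos. The log2 difference was 0.61 (SE 0.0722, limma adjusted p = 2.02e-10). Cox6c, Cox5a and Cox8a differed by 0.81, 0.73 and 0.49 there. In the Defb41 table the values of Cox4i1, Cox6c and Cox8a were 0.37, 0.41 and 0.20 and passed, but with median scaling they were 0.22, 0.26 and 0.06 and did not. Cox7c differed in sign between tables, with 0.33 in the testicular sperm table (limma adjusted p = 0.00268) and -0.25 in the Defb41 table (limma adjusted p = 0.0314). With the number of detected genes as a covariate the Defb41 value of Cox7c was 0.28.

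**Figure D3:**
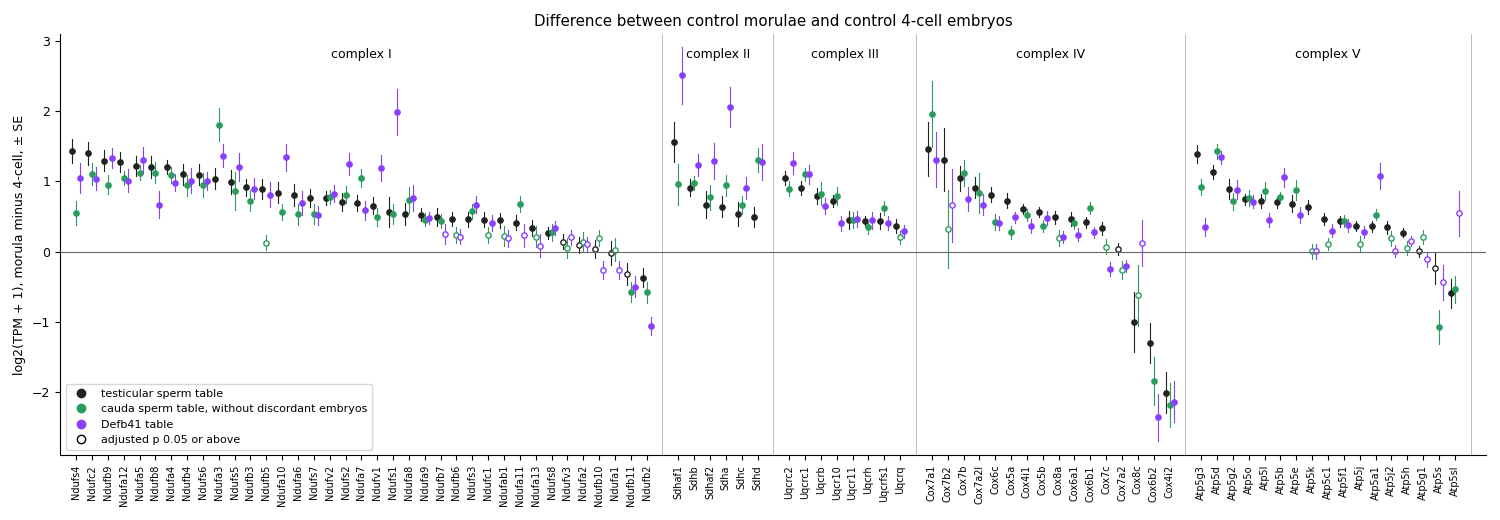
Morula minus 4-cell difference in log2(TPM + 1), with SE, for the tested genes by complex in embryos of control fathers, with the cauda table without the discordant embryos; colours are the 3 tables and open points have an adjusted p of 0.05 or above. Most points lie above 0, and Cox4i2, Cox6b2 and Ndufb2 are filled points below 0 in all 3. With the discordant embryos Cox6b2 in the cauda table had an adjusted p of 0.061 in limma.

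Complex V genes were higher in 14 of 17 cases and lower in 1 in testicular sperm morulae. In the Defb41 table, 11 were higher and 0 lower, and in the cauda table without the discordant embryos, 9 and 2, or 2 and 1 with them. Of all genes, 29.7%, 49.1% and 32% were higher in these tables in this order, or 27.2% with the discordant embryos. In the Defb41 table the median log2 difference was 0.37 for complex V, below the 0.46 over all genes. The catalytic head was higher in 5 of 5 genes in the testicular sperm and Defb41 tables, and in the cauda table in 4 of 5 without the discordant embryos and 2 of 5 with them. Atp5d, the delta subunit of its stalk, had 469.5, 993.9 and 1302 TPM in control morulae from testicular sperm, against 289.2, 416.8 and 704.0 TPM in 4-cell embryos. Its log2 difference was 1.14 (SE 0.102, limma adjusted p = 4.51e-14), with 1.34 in the Defb41 table and 1.43 in the cauda table without the discordant embryos or 0.99 with them. Atp5b had 1203, 1740 and 2370 TPM in morulae, against 528.1, 1085 and 1399 TPM in 4-cell embryos, a log2 difference of 0.70 (SE 0.0774, limma adjusted p = 3.05e-11). Atp5o, part of the peripheral stalk, differed by 0.74, Atp5e by 0.68 and Atp5a1, the alpha subunit, by 0.36.

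The 3 c-ring genes, Atp5g1, Atp5g2 and Atp5g3, encode the same mature protein behind different import signals, and they moved apart. Atp5g3 had 249.6, 472.8 and 910.9 TPM in control morulae from testicular sperm, against 101.2, 177.0 and 272.8 TPM in 4-cell embryos. Its log2 difference was 1.39 (SE 0.128, limma adjusted p = 8.34e-14). In the Defb41 table Atp5g3 differed by 0.35, and by 0.20 with median scaling, where it did not pass (limma adjusted p = 0.28). Atp5g2 had 91.63, 340.7 and 599.4 TPM in morulae, against 79.62, 186.4 and 279.6 TPM in 4-cell embryos, a log2 difference of 0.89 (SE 0.136). Atp5g1, the highest of the trio at both stages, had 1084, 1369 and 1952 TPM in morulae, against 876.1, 1497 and 1856 TPM in 4-cell embryos. Its difference was 0.0043 (SE 0.079, limma adjusted p = 0.967), and it did not pass in the other tables either, at -0.11 in the Defb41 table and, in the cauda table, 0.21 without and 0.07 with the discordant embryos. With the number of detected genes as a covariate Atp5g1 was 0.58 higher in Defb41 morulae.

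Among the isoform pairs, Cox4i2, Cox6b2 and Cox8c went against their partners in the testicular sperm table. Cox4i2 had 0, 1.37 and 9.5 TPM in control morulae from testicular sperm, against 1.75, 8.04 and 29.01 TPM in 4-cell embryos. It was at 0 in 10 of those 27 morulae and in 0 of the 22 4-cell embryos. Its log2 difference was -2.01 (SE 0.296, limma adjusted p = 5.74e-08), with -2.14 in the Defb41 table and -2.19 in the cauda table without the discordant embryos or -1.48 with them. Cox6b2 had 3.9, 18.37 and 78.41 TPM in morulae, against 9.88, 44.62 and 167.5 TPM in 4-cell embryos, with a limma adjusted p of 8.75e-05. Its log2 differences in the Defb41 and the cauda table without the discordant embryos were -2.36 and -1.85. With the discordant embryos the cauda value of Cox6b2 was -1.01 and did not pass (limma adjusted p = 0.061). Cox8c had a log2 difference of -1.003 in testicular sperm morulae (SE 0.431, limma adjusted p = 0.0402), and at -0.95 with median scaling it did not pass. It did not pass in the Defb41 table, at 0.12, or in the cauda table, at -0.62 without and -0.22 with the discordant embryos. Cox7a1 had 6.55, 45.72 and 123.9 TPM in morulae, against 0, 20.08 and 75.11 TPM in 4-cell embryos, and rose in the testicular sperm, the Defb41 and, without the discordant embryos, the cauda table by log2 1.46, 1.31 and 1.96, while Cox7a2 differed by 0.04, -0.20 and -0.26, of which the Defb41 value passed. With the discordant embryos the cauda values were 1.60 for Cox7a1 and -0.46 for Cox7a2, and both passed. Cox7b, at 132.9 against 61.95 TPM in the medians, rose by log2 1.04 in the testicular sperm table. Its partner Cox7b2 rose by 1.31 there (SE 0.452, limma adjusted p = 0.0108). Cox7b2 did not pass in the Defb41 table, at 0.66, or in the cauda table, at 0.32 without and 0.10 with the discordant embryos. On the log2(TPM + 1) scale the change of low genes such as Cox4i2 is understated.

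**Figure D4:**
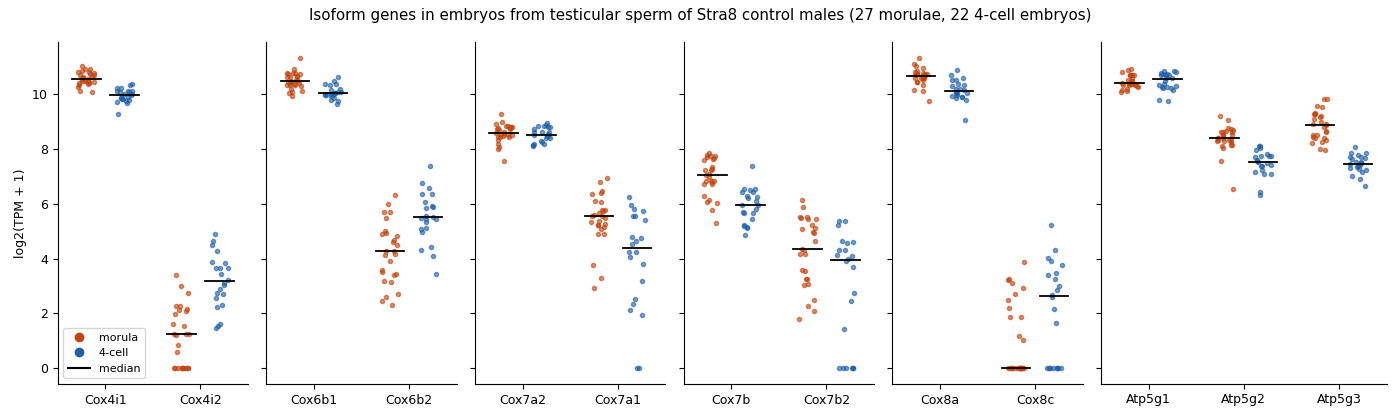
log2(TPM + 1) per embryo of isoform genes in 27 morulae and 22 4-cell embryos from testicular sperm of Stra8 control males, with lines at the medians. Cox4i2 and Cox6b2 are lower in morulae while Cox4i1 and Cox6b1 are higher, and Atp5g1 has medians of 1369 and 1497 TPM.

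The tables were compared by their called genes. Of the genes higher in morulae, 55 were so in all 3 tables with the discordant embryos left out, which is 77.5% of the 71 of testicular sperm, 96.5% of the 57 of cauda sperm and 90.2% of the 61 of Defb41. The genes lower in all 3 were Cox4i2, Cox6b2 and Ndufb2. With the discordant embryos 16 were higher in all 3 tables, and Cox4i2 and Ndufb2 were lower. A further 8 genes were called in none: Atp5g1, Cox6a2, Cox8b, Ndufa1, Ndufa2, Ndufa4l2, Ndufb10 and Ndufv3, named here for that and not by any earlier rule, of which Cox6a2, Cox8b and Ndufa4l2 did not pass the filter. These overlaps are across separate embryos. They were not counted over all genes, so whether such agreement between tables is particular to this set is unknown.

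The number of detected genes moved with stage in the Defb41 table, with a median of 9903 in control morulae and 8362 in control 4-cell embryos. Its part in the large Defb41 differences was not tested apart from a fit that holds it as a covariate. In that fit 62 genes of the set were higher and 3 lower. The share of all genes called in that fit is not given here, so the count does not set these genes apart from others. Sdha, which differed by 2.06 (limma adjusted p = 6.37e-09), was then at 0.59 (limma adjusted p = 0.164), and Ndufs1, at 1.99 before, was at -0.33 (limma adjusted p = 0.395). Atp5a1, at 1.08 before, was at -0.17. In the testicular sperm table the medians of detected genes were 9871 and 9529, and Sdha and Ndufs1 differed by 0.64 and 0.56.

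Other genes that serve the same enzymes were counted in the same fits, with the shares of all genes given above. Of 39 tested assembly factors outside the set, 20 were higher and 10 lower in testicular sperm morulae, 25 and 8 in the Defb41 table, and in the cauda table, 19 and 8 without the discordant embryos or 13 and 6 with them. Of 13 tested genes of cytochrome c and coenzyme Q, a list that holds the complex III subunit Cyc1, 4 were higher and 3 lower in testicular sperm morulae and 4 and 4 in the Defb41 table. Of 14 tested in the cauda table without the discordant embryos, 3 were higher and 7 lower, or 2 and 6 with them. Of 16 regulators of mitochondrial biogenesis such as Nrf1 and Tfam, 4 were higher and 9 lower in testicular sperm morulae, 5 and 5 in the Defb41 table, and in the cauda table, 4 and 8 without the discordant embryos or 3 and 3 with them. For reference, the maternal list had 0 higher and 11 lower of 11 and the morula and trophectoderm list 8 higher and 0 lower of 10 in testicular sperm morulae. Cumulus genes did not pass the filter in these fits, and their summed level was at most 8.16 TPM in any embryo. Sperm genes summed to at most 31.72 TPM.

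The discordant embryos stood far apart in these genes. The 87 genes held 6.65 to 7.86% of their TPM, against 2.14 to 3.14% in the other embryos labelled 4-cell and 2.83 to 4.30% in the morulae of the same table. Of the 87 genes, 57 had every discordant embryo above every other embryo labelled 4-cell, and 0 had every such embryo below. Over the 83 genes with a ratio, the median ratio of medians was 2.74, and 78 ratios were above 1. These counts and ratios were not made over all genes, so whether they are particular to the set is unknown. Cox7b had a median of 508.2 TPM, against 53.52 TPM in the other 4-cell labelled embryos and 130.9 TPM in morulae. Cox5a had a median of 3286 TPM, against 830.7 and 990.9 TPM. Atp5g3 had 764.2 TPM, against 108.7 and 196.9 TPM, while Atp5g1 had 1587 TPM, against 1050 and 1344 TPM. Cox4i2 had a median of 0 and a highest value of 1.34 TPM, against a median of 5.36 TPM. These are descriptions without a test. Beside them, Krt8 had a median of 4477 TPM, against 7.26 TPM in the other 4-cell labelled embryos and 385.9 TPM in morulae.

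With those 9 embryos in the group, the stage comparison of cauda sperm embryos changed for single genes. Cox5a, Cox6a1 and Cox6c differed by -0.28, -0.04 and -0.01 with them, and by 0.27, 0.40 and 0.42 without them. Atp5d was higher in morulae either way, by 0.99 with them and 1.43 without.

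The father's genotype and the injected RNA were compared within stage and table in 10 comparisons. The question they address is whether loss of Dgcr8 in the male line, or injected epididymosome miRNA, goes with a difference in embryonic mRNA. Of the oxidative phosphorylation genes, 83 or 84 were tested in each, and a single call was made, Atp5k in morulae from testicular sperm of Stra8 cKO fathers. In that comparison 0.197% of all 11161 genes were called, 0.0627% in the direction of Atp5k.

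Atp5k encodes subunit e of ATP synthase, a small membrane protein known for its part in joining the enzymes into dimers, and lies at chr5:108433246-108434399 in GRCm38. It had 421.2, 637.6 and 878.8 TPM in 21 cKO morulae (lowest, median and highest), against 609.4, 846.9 and 1425 TPM in 27 control morulae. The ranges overlap from 609.4 to 878.8 TPM. The means were 659.6 ± 110.2 TPM in cKO and 895.1 ± 200.2 TPM in control morulae (SD). The log2 difference was -0.43 (SE 0.0827, limma adjusted p = 0.0203). With the embryo number of the titles as a block, in 20 cKO and 20 control embryos, it was -0.40 (limma adjusted p = 0.177) and was no longer called.

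In 4-cell embryos of the same table Atp5k had 378.7, 646.1 and 769.6 TPM in cKO and 320.9, 595.2 and 884.8 TPM in control embryos, a log2 difference of 0.13 (SE 0.102). The difference between the morula and 4-cell effects was -0.55 (SE 0.13, limma adjusted p = 0.108) and did not pass. In cauda sperm morulae of the Stra8 line Atp5k differed by 0.12 (SE 0.108), and in Defb41 morulae by 0.07 (SE 0.092) for cKO with control RNA and by 0.22 (SE 0.0895) for cKO with miRNA, both against control. Against control RNA the miRNA value was 0.15 (SE 0.0942). In the testicular sperm morulae, trophectoderm genes summed to a median of 2016 TPM in cKO and 2481 TPM in control embryos, maternal transcripts to 23.9 and 25.8 TPM, and the median of detected genes was 9915 and 9871. Their part in the Atp5k difference was not tested, apart from the fit with detected genes as a covariate, where Atp5k stood at -0.42.

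The median log2 difference over the 84 tested genes in those morulae was -0.10, against 0.05 over all genes tested, and 17 of the 84 had an unadjusted p under 0.05, while 12.7% of all genes did. This count was 10 of 84 (11.9%), with 11.8% of all genes, without embryos with few detected genes. It was 11 of 84 (13.1%), with 11.9% of all genes, with detected genes as a covariate. Median scaling gave 21 of 84, with 12.4% of all genes, and the embryo number as a block 12 of 84, with 8.64%. A pseudocount of 0.1 gave 17 of 84, with 12.2% of all genes, and no filter on low values 16 of 86, with 9.01%. The excess of the set over all genes thus depended on the processing. Cox6c had a difference of -0.32 (SE 0.0946, limma adjusted p = 0.126) and Atp5e, the epsilon subunit of ATP synthase, one of -0.38 (SE 0.13, limma adjusted p = 0.194). In 4-cell embryos of that source, 0 were called and 10 of 84 had an unadjusted p under 0.05, while 0.0184% of all genes were called and 6.90% had such a p. The lowest adjusted p there was that of Cox6b1, at -0.30 (SE 0.0853, limma adjusted p = 0.38).

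In embryos from cauda sperm of the Stra8 line limma called 0 genes of the set and 0 genes of all at either stage. In 4-cell embryos 0 of 84 had an unadjusted p under 0.05, while 2.46% of all genes did, and without the discordant embryos 6 of 84 did, while 6.87% of all genes did. With detected genes as a covariate 14 of 84 did, while 6.68% of all genes did, and 0 of the set were called. In morulae 5 of 84 did, while 7.09% of all genes did. The lowest adjusted p of the set in those morulae belonged to Atp5b, at -0.20 (SE 0.0568, limma adjusted p = 0.513). Sdhb and Atp5g3 had differences of 0.20 (SE 0.0788) and -0.27 (SE 0.0986).

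In Defb41 4-cell embryos limma called 0 genes of the set and 0 of all in each of 3 comparisons. Unadjusted p under 0.05 was reached by 10 of 83 for cKO with control RNA against control (8.19% of all genes), 5 of 83 for miRNA against control RNA (7.76% of all) and 2 of 83 for miRNA against control (3.66% of all). Leaving out set 3 moved these counts to 21, 22 and 7 of 83, with 16.8%, 22.6% and 4.18% of all genes, and 0 of the set were called. Of all genes, 4 were then called for miRNA against control RNA and 0 in the other comparisons. The median over the 83 genes for control RNA against control was -0.13, against 0.16 over all genes. In Defb41 morulae 0 of 84 were called for cKO with control RNA against control (0.154% of all genes), for miRNA against control RNA (0.0361% of all) and for miRNA against control (0.00916% of all). The unadjusted counts were 7, 2 and 11 of 84, while 14%, 7.74% and 15.3% of all genes had such a p. Over fits that left out each set in turn the counts ran from 2 to 9, 1 to 6 and 4 to 13. In those fits 8.52 to 13.4%, 4.36 to 13.1% and 8.94 to 18.1% of all genes had such a p. Of all genes, 0 to 15, 0 to 36 and 0 to 54 were called there, against 17, 4 and 1 with every set. Ndufs1 had the lowest adjusted p of the set for miRNA against control, at -0.60 (SE 0.168, limma adjusted p = 0.135). Uqcrc1 had the lowest for control RNA against control, at -0.28 (SE 0.105, limma adjusted p = 0.218). These comparisons share embryos: the control RNA and the control groups each enter a pair of them.

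**Figure D5:**
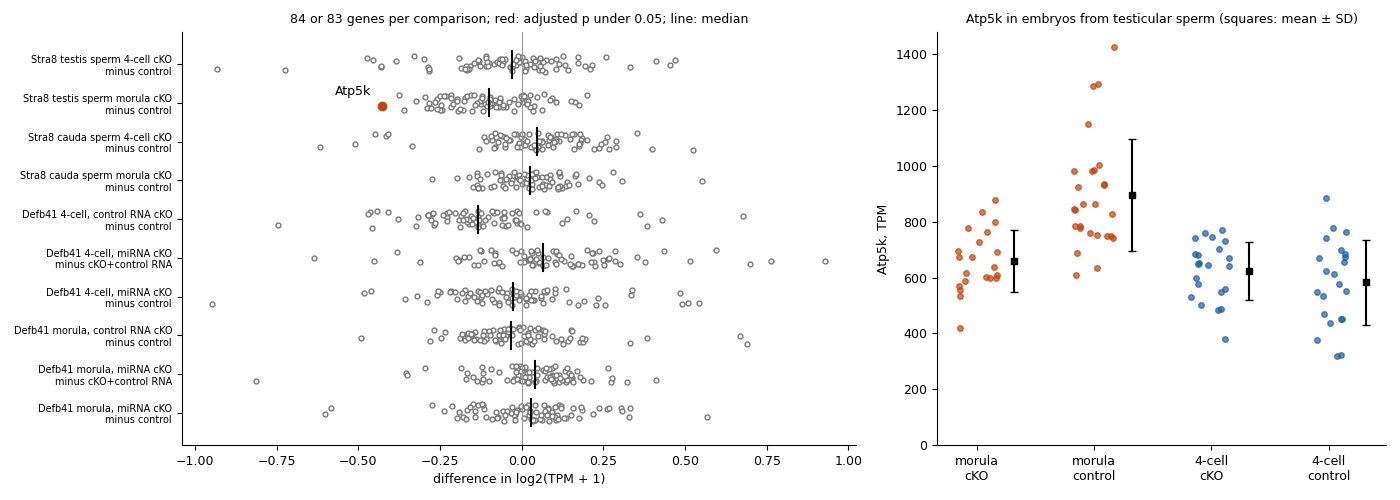
Left, difference in log2(TPM + 1) of each tested gene in the 10 comparisons of father's genotype or injected RNA, with a line at the median; the filled point is Atp5k, the single gene with an adjusted p under 0.05. Right, Atp5k in TPM per embryo from testicular sperm with mean and SD, at 659.6 TPM in cKO and 895.1 TPM in control morulae.

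Tests of whether the father's effect differed between morulae and 4-cell embryos called 0 genes of the set in the 3 tables, with 6, 0 and 9 of 84 at an unadjusted p under 0.05 in the testicular sperm, cauda sperm and Defb41 tables. Of all genes, 7.95%, 3.74% and 9.46% had such a p, and 0.0266%, 0% and 0% were called. Without the discordant embryos 5 of 84 genes in the cauda sperm table had such a p and 0 were called, while 8.06% of all genes had such a p and 0.0614% were called.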

How the data were processed

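The authors deposited TPM per gene and single embryo in 3 tables, made with RSEM per the submitters' processing notes (version not given in the sources used here), on mm10 per the labels. The labels' protocols name polyA RNA and Nextera XT libraries. TPM adds to the same total in every embryo, so depth is unknown and values are shares. A column of values that matched no sample (1 in all) was not used.

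Differences were computed with limma 3.58.1 in R 4.3.3 (trend and robust) on log2(TPM + 1), within a table, over genes with at least 1 TPM in a share of at least 0.25 of the embryos compared, with Benjamini-Hochberg adjustment over all genes. The fold of low genes is understated on this scale. The code was tested on simulated data. Levels and promoters were summarised with Python 3.11.15, pandas 2.3.3 and numpy 2.4.6, and drawn with matplotlib 3.10.9.

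The genes and lists were chosen with earlier results of these data known. Genes named in the text are fixed core and isoform genes, genes called in a comparison (at most 12, by lowest adjusted p), the 5 highest and those below 1 TPM throughout; others are said to be chosen afterwards or were chosen for a promoter match. Same-numbered sets deviated together in Stra8 cauda sperm embryos (lowest r 0.509 in 4-cell embryos and 0.106 in morulae, 3 pairs each) and in Defb41 morulae given control RNA against control (lowest r 0.103, 4 pairs), over genes. Alternatives were a pseudocount of 0.1, no filter, median scaling, detected genes as a covariate, leaving out embryos with few genes, set means, a replicate block and leaving out each set.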

Additional observations from a re-analysis of the deposited data

How the results depend on the processing

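Of 5267 alternative values of single genes, 5130 had the outcome of the main fit, which includes values called in neither fit. In the comparisons of genotype or injected RNA, Atp5k was the single call to keep. A further 99 values lost a call, 31 gained one and 7 changed sign where either fit made a call. With a replicate block on embryo numbers, 0 genes of the set were called in testicular sperm morulae against 1 without it, Atp5k, at an adjusted p of 0.177 in limma. The labels do not say whether these numbers pair embryos. Over 20 same-numbered pairs of those morulae, r ran from -0.206 to 0.266 with a median of 0.0131, and 7 were above 0.1. Blocks on sets or tags that deviated together changed no other call. The stage comparison of Stra8 cauda sperm depended most on the processing: limma called 12, 11 and 0 genes, of them 6, 7 and 0 higher, under median scaling, detected genes as a covariate and set means. Leaving out each set or tag in turn gave 12 to 63 called and 4 to 57 higher, the highest without the discordant embryos. Over these, Cox5a ranged from -0.74 to 0.27, Cox6a1 from -0.34 to 0.40 and Cox6c from -0.40 to 0.42. In the Defb41 stage comparison the covariate gave -0.17 for Atp5a1, 0.58 for Atp5g1, 0.28 for Cox7c and -0.33 for Ndufs1, each with the sign turned. The causes were not tested. Median scaling left 48 higher and 9 lower there. Apart from the fit without the discordant embryos, stage counts under alternatives are given without the shares of all genes called. They describe how the counts of the set moved and do not compare the set with other genes. All embryos as deposited, the pair across groups left out, and the levels, overlaps and interaction with or without the discordant embryos were alternatives chosen after seeing the data. Depth is unknown, and values near 1 TPM are the least certain.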
